A study of Mus musculus with 2 samples.

Results

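The 3 Runx genes of the mouse, Runx1, Runx2 and Runx3, and Cbfb, the gene of their shared partner, were followed in the polyadenylated RNA of inflammation-experienced regulatory T cells. Members were taken by gene name, and all 4 were found among the 55536 annotated genes. The cells came from an adult male of 6 months, of the strain Foxp3CreERT2 x Rosa26YFP, in which the Foxp3 gene drives a tamoxifen-inducible Cre recombinase and the Rosa26 locus carries a yellow fluorescent reporter. These are primary cells, and the labels trace them to bone marrow hematopoietic cells. How inflammation was brought about is not given in the sources used here. There was 1 group and 1 biological replicate, from which 2 technical libraries were made by shearing to between 100 and 300 bp. No other condition was analysed here, so levels describe these cells, and an SD is the spread between technical libraries and not between animals. In bulk RNA, fewer cells of a type and less RNA per cell cannot be told apart.

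Runx proteins bind DNA through the Runt domain, and Cbfb, which does not bind DNA itself, joins them as a non-DNA-binding subunit that raises their affinity and protects them from turnover. Runx1 is needed for blood stem cells and early thymocytes, Runx2 directs bone and cartilage formation, and Runx3 silences Cd4 and supports the cytotoxic programme of CD8 T cells. In regulatory T cells, Runx factors with Cbfb bind the Foxp3 gene and help to keep it expressed, and Runx1 also binds the Foxp3 protein. Each Runx gene has a distal promoter, P1, and a proximal promoter, P2, which give proteins with different amino ends.

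The products of the promoters differ in the first coding bases, which are shown here because they tell which protein end a transcript encodes. Bases in capitals are those found only in the distal or only in the proximal product, counted from the start codon, and the lower case bases are the next 30, which both products share. They were read 5′ to 3′ from the GENCODE M21 transcripts. The distal capitals lie at chr16:92825589-92825646 (minus strand) in Runx1, chr17:44814169-44814226 (minus strand) in Runx2 and chr4:135121106-135121163 (plus strand) in Runx3, build GRCm38. The proximal capitals lie at chr16:92695738-92695753, chr17:44735619-44735634 and chr4:135152772-135152787.
Runx1-201, distal: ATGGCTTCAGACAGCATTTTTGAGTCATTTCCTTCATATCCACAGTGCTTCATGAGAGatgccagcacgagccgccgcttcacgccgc
Runx2-202, distal: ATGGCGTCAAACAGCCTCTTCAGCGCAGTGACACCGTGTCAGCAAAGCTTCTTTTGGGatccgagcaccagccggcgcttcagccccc
Runx3-201, distal: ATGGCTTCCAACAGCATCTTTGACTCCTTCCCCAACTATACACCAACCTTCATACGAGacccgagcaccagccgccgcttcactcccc
Runx1-203, proximal: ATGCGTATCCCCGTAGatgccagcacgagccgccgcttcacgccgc
Runx2-203, proximal: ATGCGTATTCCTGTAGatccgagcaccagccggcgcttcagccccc
Runx3-202, proximal: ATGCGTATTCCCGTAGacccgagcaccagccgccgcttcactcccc
The distal product of each gene starts with 58 bases of its own and the proximal product with 16. Over the first 57 distal bases, Runx1 and Runx3 share 70.2%, Runx1 and Runx2 57.9%, and Runx2 and Runx3 56.1%. The proximal 16 bases are closer to each other, with 87.5% shared by Runx1 and Runx2 and 93.8% by each of the other pairs.

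Levels are given in TPM, a share of all transcripts that is corrected for transcript length, first for technical replicate 1 and then for technical replicate 2. A gene counted as detected when each library gave it 1 TPM or more, and 13511 genes were, with a median of 13.4 TPM. All 4 members were detected. Runx1 (ENSMUSG00000022952.17, chromosome 16, 92601466 to 92826149, minus strand) stood at 33.18 and 34.04 TPM, from 1407 and 1215 rounded estimated counts. Cbfb (ENSMUSG00000031885.14, chromosome 8, 105170674 to 105217989, plus strand) stood at 31.34 and 32.57 TPM, from 952 and 893 counts. Both lay above the median detected gene, with 71.3% and 71.9% of detected genes below Runx1 and 70.2% and 70.8% below Cbfb. Runx3 (ENSMUSG00000070691.10, chromosome 4, 135120652 to 135177990, plus strand) had 8.27 and 11.91 TPM, from 394 and 490 counts. Runx2 (ENSMUSG00000039153.16, chromosome 17, 44495987 to 44814797, minus strand) was the lowest member, at 4.59 and 5.24 TPM from 330 and 312 counts. Runx3 and Runx2 lay below the median detected gene in both libraries.

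As mean ± SD (n = 2 technical libraries), the gene levels were 33.6 ± 0.61 TPM for Runx1, 32.0 ± 0.87 for Cbfb, 10.1 ± 2.57 for Runx3 and 4.92 ± 0.46 for Runx2. The deposited tables also hold a posterior mean TPM with lower and upper credibility bounds for each library, which do not cover differences between animals. They belong to the posterior mean and not to the TPM printed above, which lay over the upper bound in both libraries for Runx1 and for Cbfb. The bounds of Runx1 (27.8 to 33.0 and 27.6 to 33.5) overlapped those of Cbfb (26.6 to 30.8 and 27.3 to 32.0), so the order of these neighbours was not resolved. Those of Runx3 (7.23 to 9.78 and 10.2 to 13.4) lay below Cbfb and above Runx2 (4.34 to 6.07 and 4.75 to 6.76) in each library. The bounds of Runx3 did not overlap between the libraries. Of the TPM summed over the Runx genes, Runx1 held 72.1% and 66.5%, Runx3 18.0% and 23.3%, and Runx2 9.97% and 10.2%. The smaller gene table, which counts GENCODE M4 genes, gave each member a lower share of the counts of matched genes: the mean CPM was 36.2 against 99.9 for Runx1, 18.6 against 70.5 for Cbfb, 6.93 against 34.1 for Runx3 and 5.93 against 24.5 for Runx2. By mean CPM the order of the 4 genes was the same in both tables, although Runx2 had more counts than Runx3 in technical replicate 1 of the smaller one (26 against 20).

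**Figure D1:**
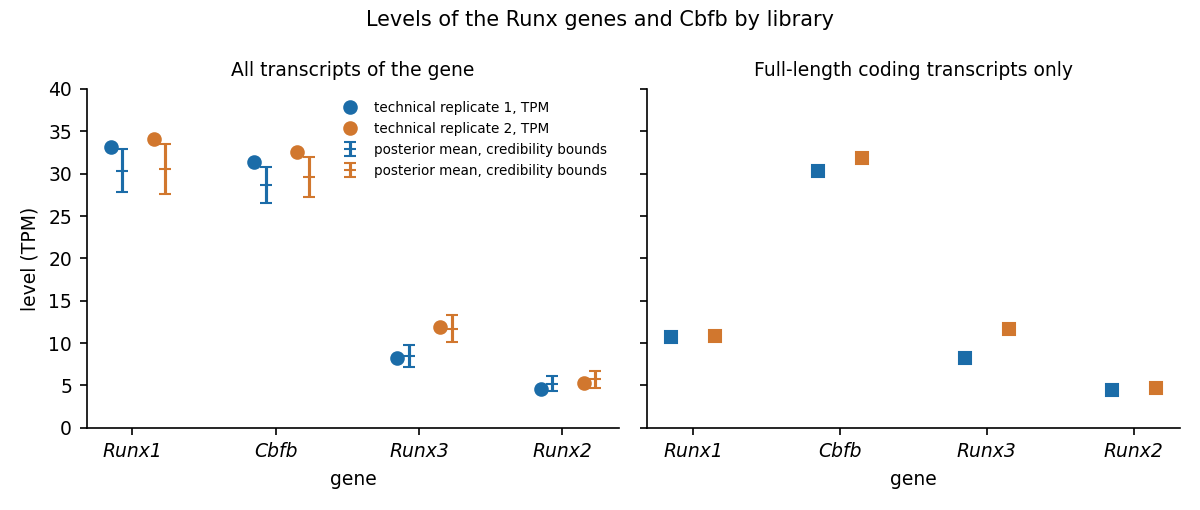
Levels of the 4 genes in TPM for technical replicates 1 and 2, for all transcripts of each gene (left: circles are TPM, bars are the posterior mean with credibility bounds) and for full-length coding transcripts only (right: squares). Runx1 and Cbfb lie near each other on the left, at 31.3 to 34.0 TPM, while on the right Runx1 stands at 10.75 and 10.82 TPM beside 30.29 and 31.84 TPM for Cbfb. Most of the Cbfb level on the right is Cbfb-203 (24.45 and 23.3 TPM), which lacks 39 codons of the longest product.

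Much of the Runx1 signal was assigned to transcripts that encode no protein or only part of one. Full-length coding transcripts, here the protein-coding models whose start and end were both found by the annotation, held 10.75 and 10.82 TPM of Runx1. They held 30.29 and 31.84 TPM of Cbfb, 8.27 and 11.61 TPM of Runx3, and 4.48 and 4.76 TPM of Runx2. On this scale Cbfb stood above every Runx gene, and Runx1 was 0.355 and 0.340 times Cbfb, against 1.06 and 1.05 times over all transcripts. Runx1 and Runx3 changed places between the libraries, with a ratio of 1.30 in technical replicate 1 and 0.932 in technical replicate 2. Cbfb came to 1.29 and 1.17 times the sum of the Runx genes on full-length coding transcripts, and to 0.681 and 0.636 times that sum over all transcripts. Most of the full-length coding level of Cbfb was Cbfb-203 (24.45 and 23.3 TPM), which lacks 39 codons of the longest product. The longer Cbfb-201 (2.95 and 4.59 TPM) and Cbfb-202 (2.89 and 3.95 TPM) each stood below Runx1 on this scale. The restriction to full-length coding transcripts was chosen after the values were seen.

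The transcript that held the largest share of Runx1 TPM in both libraries was Runx1-207, a processed transcript of 2538 nt without a coding sequence. It starts at the distal promoter and ends within the intron that separates the distal from the proximal start, and 2281 of its bases are absent from Runx1-201. It held 15.62 and 13.66 TPM, or 43.6% ± 4.92 of the gene (SD, n = 2), from 483.1 and 373.2 estimated counts. Runx1-201, which encodes the distal product of 465 codons, held 10.61 and 10.47 TPM, 31.4% ± 0.86 of the gene, from 765.9 and 667.9 counts. The counts put Runx1-201 ahead of Runx1-207 and the TPM put it behind, since Runx1-201 is longer, at 5861 nt. Runx1-206, a retained-intron transcript of the proximal promoter, held 2.59 and 3.08 TPM, and Runx1-205 and Runx1-204, coding models that the annotation marks as incomplete, held 2.95 and 3.68 TPM and 1.28 and 2.82 TPM. The proximal coding transcripts were near 0: Runx1-202 (387 codons) held 0.14 and 0.11 TPM, and Runx1-203, the proximal product of 451 codons, 0 and 0.24 TPM. Transcripts without a coding sequence took 42.9% and 41.2% of the Runx1 counts.

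**Figure D2:**
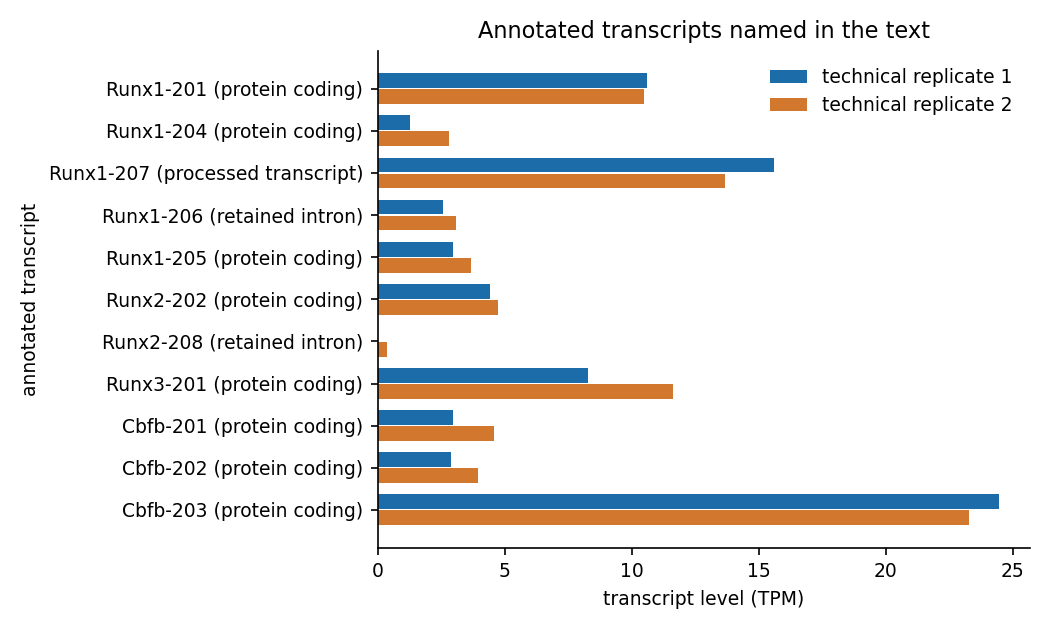
Level in TPM of each transcript that held 5% or more of its gene's TPM or counts in at least 1 library; blue bars are technical replicate 1 and orange bars technical replicate 2, with the annotated type in brackets. Runx1-207, a processed transcript, exceeds Runx1-201 in both libraries, and Cbfb-203 has the longest bars, at 24.45 and 23.3 TPM.

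Reads of all 3 Runx genes were assigned mainly to transcripts from the distal starts. Annotated starts within 500 bases of each other were joined, and each gene's counts were divided between the starts. The distal and proximal starts lie 128.8 kb apart in Runx1, 78.1 kb in Runx2 and 31.8 kb in Runx3. For Runx1, distal starts held 89.1% and 86.4% of the counts, with exact binomial 95% (Clopper-Pearson) intervals of 87.4% to 90.7% and of 84.4% to 88.3%. They held 97.3% (94.9% to 98.7%) and 98.4% (96.3% to 99.5%) of the Runx2 counts. In Runx3 they held 394 of 394 counts (99.1% to 100%) and 489 of 490 (98.9% to 99.99%). These intervals cover counting error only.

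Among full-length coding transcripts, the distal share was 99.0% and 98.4% in Runx1, 98.4% and 99.5% in Runx2, and 100% in both libraries of Runx3. The only full-length proximal transcript of Runx3, Runx3-202, which encodes 409 codons, had 0 counts in both libraries, which allows shares of up to 0.761% and 0.613% of the gene's full-length coding counts. The distal capitals shown above therefore belong to the products that held nearly all full-length coding counts. This assignment rests partly on bases far from the promoter. Runx3-201 and Runx3-202 differ in 512 bases at the 5′ end of the former and 292 at the 5′ end of the latter, and also in 1809 bases at the 3′ end that Runx3-201 alone holds. Runx1-201 holds 332 bases at the 5′ end and 2190 at the 3′ end that Runx1-202 lacks. Runx2-202 and Runx2-203 share their 3′ end and differ only in 465 and 1030 bases at the 5′ end.

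Among the Runx genes, the division of Runx2 between promoters had the largest posterior SD. Runx2-202, the distal product of 528 codons, held 321.2 and 304.7 estimated counts with a posterior SD of 21.1 and 20.7. Runx2-203, the proximal product of 514 codons, held 5.09 and 1.44 estimated counts, while its posterior mean counts were 20.8 and 25.3. By posterior mean counts the distal share of Runx2 was 91.0% over both libraries, against 97.9% by estimated counts. Runx2-208, a retained-intron transcript at the distal start, held 0 and 6.83% of the gene's TPM from 0 and 2 counts.

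**Figure D3:**
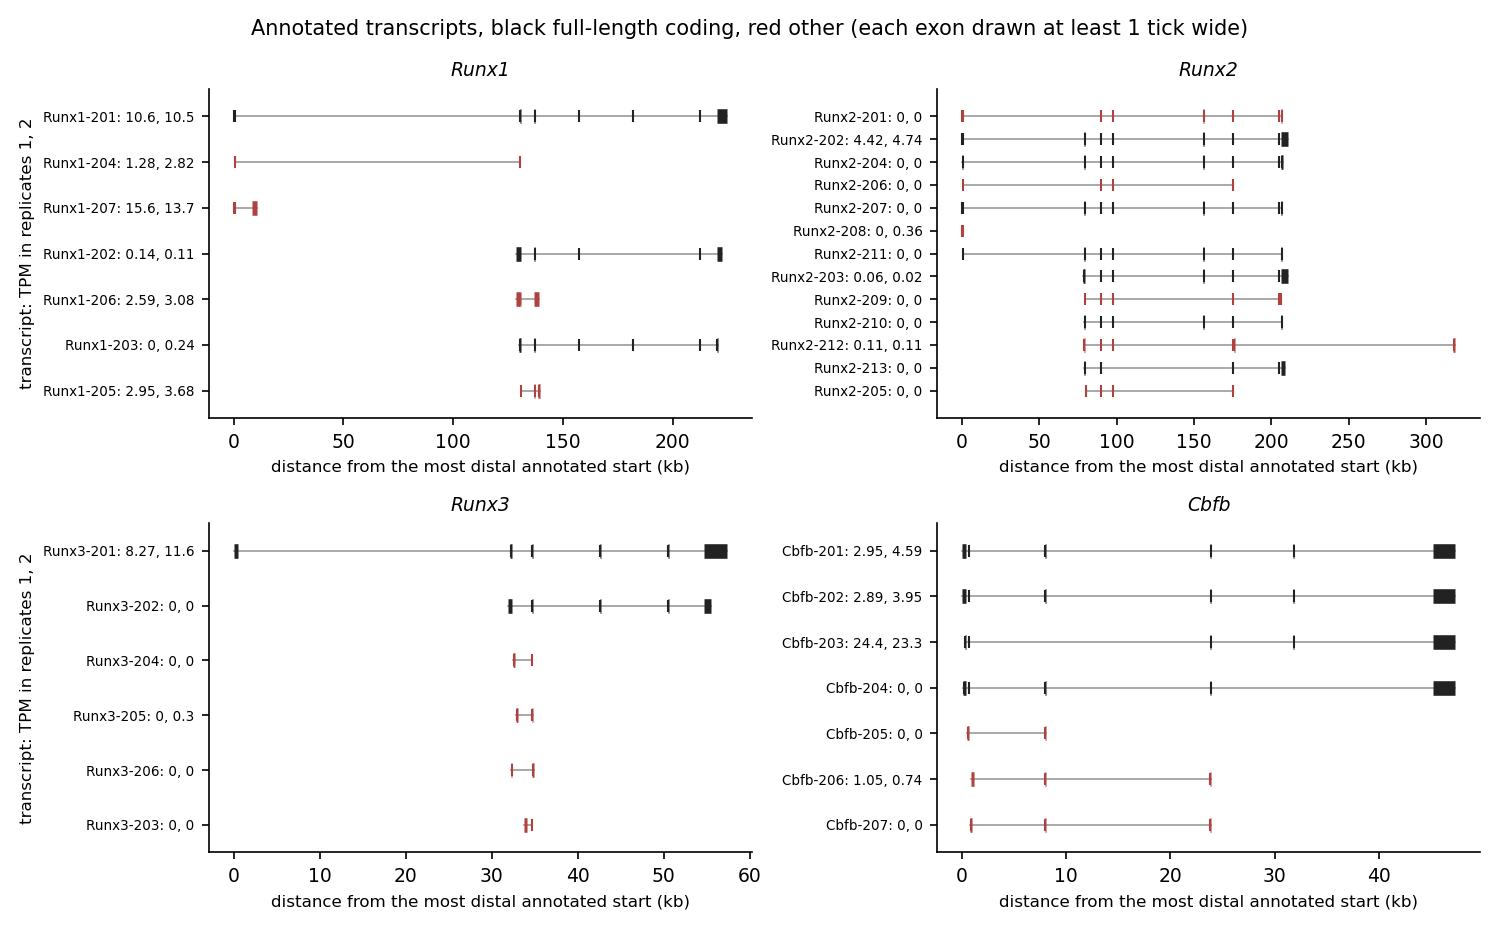
Annotated transcripts of each gene drawn along the distance in kb from the most distal annotated start, in the direction of transcription; black exons belong to full-length coding transcripts and red exons to the others, and the TPM in technical replicates 1 and 2 follows each name. The levels of Runx2 and Runx3 stand at the long distal transcripts, and Runx1-207 lies close to the distal start of Runx1.

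The DNA around the distal and proximal starts of Runx1 and Runx3 differed in its CpG content. No RefSeq window was available at the proximal start of Runx2, so its starts were not compared. The stretches before the first annotated start are shown because they contrast the distal starts, which held most counts, with the proximal ones. They come from the RefSeq promoter table, build GRCm38.p6, with each CpG dinucleotide in capitals.
Runx1 distal, chr16:92826150-92826324, minus strand: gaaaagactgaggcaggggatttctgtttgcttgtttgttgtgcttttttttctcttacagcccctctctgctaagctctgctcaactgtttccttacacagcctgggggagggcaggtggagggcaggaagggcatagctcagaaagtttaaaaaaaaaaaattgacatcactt
Runx1 proximal, chr16:92697330-92697579, minus strand: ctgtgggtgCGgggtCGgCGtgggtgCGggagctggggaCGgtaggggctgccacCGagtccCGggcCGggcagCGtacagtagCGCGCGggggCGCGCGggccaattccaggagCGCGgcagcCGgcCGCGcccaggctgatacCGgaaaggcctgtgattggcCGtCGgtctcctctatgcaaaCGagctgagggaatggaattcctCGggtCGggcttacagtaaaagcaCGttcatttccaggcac
Runx3 distal, chr4:135120395-135120644, plus strand: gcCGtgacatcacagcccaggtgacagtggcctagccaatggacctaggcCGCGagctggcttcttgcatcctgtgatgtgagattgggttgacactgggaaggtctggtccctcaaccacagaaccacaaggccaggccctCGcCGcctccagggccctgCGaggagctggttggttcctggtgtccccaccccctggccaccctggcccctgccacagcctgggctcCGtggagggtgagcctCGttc
Runx3 proximal, chr4:135152295-135152495, plus strand: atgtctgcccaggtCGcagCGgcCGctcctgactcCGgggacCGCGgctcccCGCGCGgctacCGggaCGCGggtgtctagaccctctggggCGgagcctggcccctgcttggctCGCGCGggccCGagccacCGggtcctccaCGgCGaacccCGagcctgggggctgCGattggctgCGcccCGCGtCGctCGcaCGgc
The distal stretch of Runx1 holds 0 CpG in 175 bases and the proximal one 27 in 250. In Runx3 the distal stretch holds 8 CpG in 250 bases and the proximal one 28 in 201. Over whole windows of 300 bases, from 250 before to 50 after the RefSeq start, the observed over expected CpG ratio was 0.137 in Runx1, 0.143 in Runx2 and 0.264 in Runx3 at the distal starts. It was 1.01 at the proximal starts of Runx1 and Runx3 and 0.987 at the single start of Cbfb. The GC content was 45.0%, 45.3% and 63.7% at the distal starts of Runx1, Runx2 and Runx3, and 69.0%, 77.3% and 69.7% at the proximal starts of Runx1 and Runx3 and at Cbfb, against a median of 52.7% over 32851 windows.

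The distal windows of the 3 Runx genes share a run of 18 bases, in capitals here with 4 bases on each side, shown because it holds 2 copies of ACCACA. That is the reverse complement of TGTGGT, the letters to which Runx proteins are known to bind.
Runx1, chr16:92826027-92826052, minus strand: taaaCAACCACAGAACCACAAGttgg
Runx2, chr17:44814585-44814610, minus strand: caaaCAACCACAGAACCACAAGtgcg
Runx3, chr4:135120505-135120530, plus strand: ccctCAACCACAGAACCACAAGgcca
The run starts 26 bases after the RefSeq start in Runx1, 21 bases after it in Runx2 and 136 bases before it in Runx3. It occurs in 4 of the 32851 windows (0.0122%), those of the 3 Runx genes and of Gm16225, whose window overlaps that of Runx3 on the other strand. On either strand, TGTGGT occurs 2 times in the distal window of Runx1, 3 times in that of Runx2 and 2 times in that of Runx3. It occurs 0 times in the proximal windows of Runx1 and Runx3 and in the window of Cbfb. Of all windows, 16.8% hold TGTGGT at least once and 1.78% at least 2 times. The counts in the distal windows include the 2 copies in the shared run, which are all of the matches in Runx1 and Runx3. They are therefore not separate from the run, which was found in these same windows. The variant TGCGGT occurs once, in the distal window of Runx2, and in 6.45% of all windows. A match describes letters and not binding, which was not measured here.

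Most of the Cbfb signal was assigned to a transcript that skips an exon of the longest product. Cbfb has a single group of starts, and 3 of its 7 annotated transcripts had 0 counts in both libraries. Cbfb-203, which encodes 148 codons, held 24.45 and 23.3 TPM, or 74.8% ± 4.60 of the gene (SD, n = 2). Cbfb-201, with 187 codons, held 2.95 and 4.59 TPM, and Cbfb-202, with 182 codons, 2.89 and 3.95 TPM. The credibility bounds of Cbfb-203 (18.3 to 24.0 and 16.2 to 23.0 TPM) lay above those of the other coding transcripts in both libraries, though below its own TPM. The levels of Cbfb-201 and Cbfb-202 were within each other's bounds. Cbfb-204 (155 codons) had 0 estimated counts, with posterior mean counts of 17.5 and 33.2.

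The sequence that separates these products is exon 3, of 117 bases, at chr8:105178593-105178709 on the plus strand. It spans codons 56 to 94 of Cbfb-201, and Cbfb-203 leaves out these 39 codons in frame. Below, the junctions show the last 15 bases of exon 2 in lower case and the first 15 of the next exon in capitals. Cbfb-202 differs by 31 extra bases at the end of exon 5, which change the frame after 165 shared codons.
Exon 3 of Cbfb-201: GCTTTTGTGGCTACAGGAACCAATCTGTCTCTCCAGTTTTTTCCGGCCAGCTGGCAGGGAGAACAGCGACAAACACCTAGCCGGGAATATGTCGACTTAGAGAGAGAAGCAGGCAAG
Exon 2 to exon 3, Cbfb-201: ggtcgctcggagatcGCTTTTGTGGCTACA
Exon 2 to exon 4, Cbfb-203: ggtcgctcggagatcGTATACTTGAAGGCT
Extra bases of Cbfb-202, chr8:105202548-105202578: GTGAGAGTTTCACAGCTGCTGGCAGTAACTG
All 2487 bases of Cbfb-203 also occur in Cbfb-201, so that only a read across the junction of exon 2 to exon 4 is particular to it. Cbfb-201 holds 396 bases that Cbfb-203 lacks, with 271 at the 5′ end, 117 in exon 3 and 8 at the 3′ end. The division was less certain than the gene level: the posterior SD was 41.2 and 45.9 counts for Cbfb-203 and 33.3 and 34.1 for Cbfb-201, and 0 for the gene as a whole.

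Genes that overlap the members can take or give reads, and the strand of the libraries is not given in the sources used here. Supt3, a subunit of transcription coactivator complexes, lies opposite the distal part of Runx2 and held 13.75 and 12.76 TPM, above Runx2 itself. By estimated counts Supt3 lay below Runx2, with 246 and 205 against 330 and 312. The antisense gene Gm16224 within Runx3 held 0.22 and 1.51 TPM, from 1 and 6 counts, and Gm24629 within Cbfb 2.01 and 0 TPM, from 1 and 0 counts. The other 6 overlapping genes stayed below 1 TPM in both libraries, among them the Runx2 antisense genes Runx2os1, Runx2os2 and Runx2os3. On the same strand, none of the stretches of 50 bases in Runx1 or Cbfb transcripts occurs in transcripts of another gene. In Runx2, 43 of 9062 (0.475%) do, and in Runx3, 55 of 4946 (1.11%). Reverse complements were not searched, so bases shared with antisense genes such as Runx2os1 are not counted here.

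The technical libraries were compared with each other, which tests these libraries and no condition. Runx3 was the member that passed the test in the larger table, with 25.6 and 36.02 CPM (counts scaled to library size) and a ratio of technical replicate 2 to 1 of 1.41. An exact binomial test with Benjamini-Hochberg adjustment over 17334 genes called Runx3 higher in technical replicate 2, with a log2 ratio of 0.49 and an adjusted p of 2.26e-05. This test called 19.2% of all genes and 1 of the 4 members. It assumes that only read sampling separates the libraries. A test with a common dispersion in edgeR (coefficient of variation 0.105) called 1.8% of genes and no member. By it, Runx3 had an unadjusted p of 0.0385, the only one under 0.05 among the members, and an adjusted p of 0.455. Among the 2294 genes of 400 to 800 mean counts, 90% of log2 ratios lay between -0.31 and 0.32, and Runx3 lay above that range. In the smaller gene table, Runx3 had 20 and 27 counts and an adjusted p of 0.511 by the exact binomial test.

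Runx1, Runx2 and Cbfb did not pass the exact binomial test. In the smaller table Runx2 had 26 and 15 counts and a log2 ratio of the opposite sign, -0.64 (adjusted p = 0.472 by the exact binomial test). Cbfb had 52 and 74 counts there and a log2 ratio of 0.64, larger than the 0.56 of Runx3 in that table, with an unadjusted p of 0.0157 and an adjusted p of 0.131 by the same test. In the larger table the log2 ratios were -0.04 for Runx1 (adjusted p = 0.749), 0.10 for Runx2 (0.632) and 0.08 for Cbfb (0.431), and all lay within the range that 90% of genes of like counts held. CPM was 91.4 and 89.3 for Runx1, 21.4 and 22.9 for Runx2, and 61.9 and 65.6 for Cbfb.

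**Figure D4:**
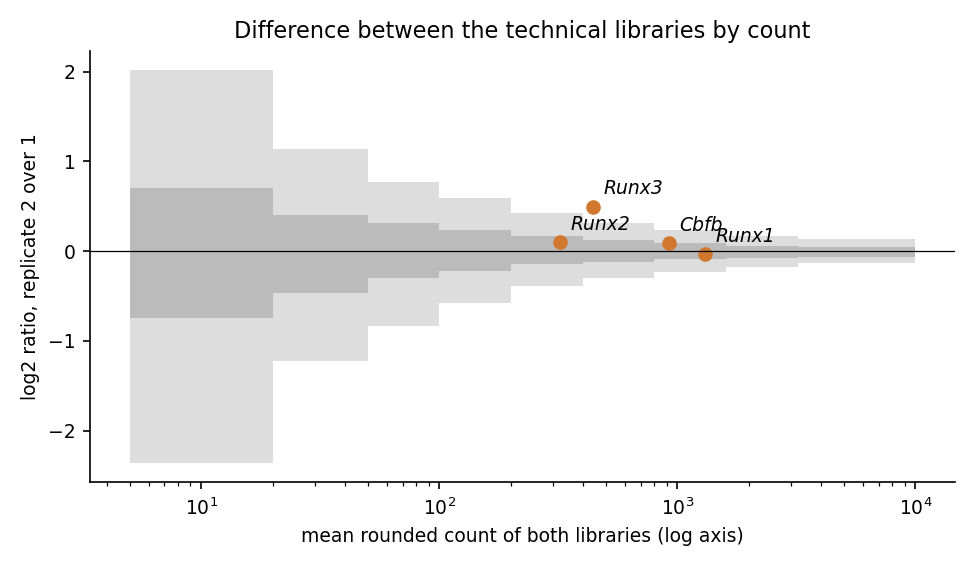
Log2 ratio of technical replicate 2 to technical replicate 1 (y axis) against the mean rounded count of both libraries (x axis, log scale). Light grey spans the central 90% and dark grey the central 50% of all tested genes in each range of counts; Runx3 lies at 0.49, above the light band, and the other members lie within it.

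Partners and targets of Runx factors were read from fixed lists, described by their levels. Of the 19 coregulators, 16 were detected, with a median of 16.0 TPM, beside 13511 of 55536 annotated genes and a median of 0.025 TPM over all of them, and beside 10288 of 22028 protein-coding genes with a median of 0.66 TPM. Hdac1, a histone deacetylase, led the list with 198.7 and 181.6 TPM. It was followed by Ncor1, a nuclear corepressor (143.5 and 143.8 TPM), and Aes, a short Groucho family protein (81.5 and 87.2 TPM). The Groucho corepressors Tle3 and Tle4 stood at 27.3 ± 0.02 and 11.9 ± 0.84 TPM (SD, n = 2), Tle1 at 1.25 ± 0.30 TPM, and Tle2 passed 1 TPM in 1 library only. The ETO family genes Cbfa2t3 and Runx1t1, known from leukemic fusions with Runx1, stayed below 1 TPM in both libraries. The exact binomial test called 3 of 18 coregulators tested lower in technical replicate 2 (Cbfa2t2, Hdac1 and Hdac3), a share near that of all genes.

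Of the 16 DNA-binding partners, 13 were detected, with a median of 19.8 TPM. Ets1, which binds DNA together with Runx1, was the highest at 631.1 and 586.6 TPM, and Tcf7 (297.4 and 295.2 TPM) and Lef1 (145.1 and 135.8 TPM), T cell HMG-box factors, came next. Foxp3, the lineage factor that binds Runx1, stood at 22.05 and 17.9 TPM. Over all transcripts of each gene, Foxp3 lay between Runx1 and Runx3 in both libraries. Full-length coding transcripts of Runx1 held only 10.75 and 10.82 TPM, and those of Foxp3 were not computed. Erg, Tal1 and Spi1, partners of Runx1 in blood stem cells and myeloid cells, stayed below 1 TPM in both libraries. Cebpa, a myeloid partner, was detected at 1.68 and 2.16 TPM. Gata1, a partner of Runx1 in megakaryocytes, held 20.66 and 18.53 TPM. The test called 1 partner higher in technical replicate 2 (Gata3) and 3 lower (Ets1, Lef1 and Smad3), of 13 tested, beside 19.2% of all genes called in either direction and 1.8% with the common dispersion.

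All 7 genes of the turnover list, which modify Runx proteins or mark them for degradation, were detected, with a median of 11.3 TPM. Stub1, a ubiquitin ligase, led with 58.3 and 65.0 TPM, and the ubiquitin ligase gene Smurf2 held 16.1 and 15.8 TPM. Between the libraries, the adjusted p of the 7 genes ran from 0.107 to 0.894 by the exact binomial test.

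Known targets of Runx factors in T cells were detected in 19 of 23 cases, with a median of 11.2 TPM. The receptor constant genes Trbc2 (3803 and 3725 TPM) and Trbc1 (2017 and 1949 TPM), whose enhancer binds Runx factors, were the highest, followed by the co-stimulatory receptor gene Tnfrsf18 (474.6 and 438.4 TPM). Cd4, which Runx1 and Runx3 silence at different stages, stood at 237.7 and 247.1 TPM. Of the CD8 genes, Cd8a held 2.52 and 2.35 TPM and Cd8b1 held 11.44 and 11.02 TPM. Zbtb7b, which encodes the helper lineage factor that opposes Runx3, stood at 8.50 and 10.32 TPM. It was called higher in technical replicate 2, with a log2 ratio of 0.40 and an adjusted p of 0.00234 by the exact binomial test. The cytokine genes Csf2, Il3 and Il17a and the factor gene Eomes stayed below 1 TPM in both libraries. The test called 1 target higher and 5 lower in technical replicate 2, of 21 tested, again beside 19.2% of all genes.

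Of 12 targets known from other lineages, 3 were detected, with a median of 0.08 TPM. These were Ntrk3, a neurotrophin receptor gene (11.18 and 11.13 TPM), Itga2b, an integrin gene of megakaryocytes (1.5 and 1.76 TPM), and Spp1, the osteopontin gene (1.30 and 1.27 TPM). The share detected was near that of all annotated genes, 13511 of 55536 with a median of 0.025 TPM. Of protein-coding genes, 10288 of 22028 were detected, with a median of 0.66 TPM. Of the bone and cartilage targets of Runx2, Bglap, Ibsp and Mmp13 had 0 TPM in both libraries, Sp7 had 0.06 and 0 TPM, and Col10a1 0.42 and 0.50 TPM. Spp1, named above, passed 1 TPM in both libraries, and Alpl had 1.07 and 0.41 TPM. The myeloid targets Csf1r, Mpo and Spi1 stayed below 1 TPM in both libraries.

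**Figure D5:**
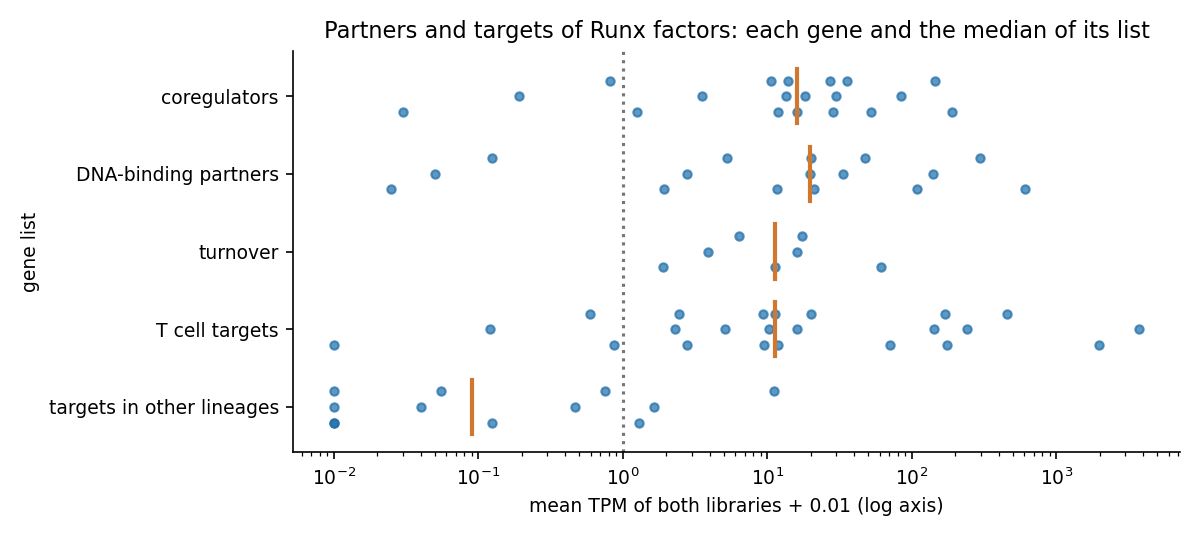
Mean TPM of both libraries, with 0.01 added for the log axis, of each gene (blue points) in 5 lists of Runx partners and targets; orange lines are list medians and the dotted line is 1 TPM. The targets in other lineages have a median of 0.08 TPM, and the other lists have medians between 11.2 and 19.8 TPM.

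The labelled cell type was checked against its markers, since other cell types also express Runx genes. All 6 T cell markers (median 954.4 TPM) and all 5 regulatory T cell markers (median 174.9 TPM) were detected. Foxp3 was the lowest of these 5, at 22.05 and 17.9 TPM. Of the CD8 T cell markers, Cd8a and Cd8b1, the summed level was 13.96 and 13.37 TPM. In the lists of other cells, 0 of 4 B cell markers passed 1 TPM in both libraries (summed level 3.24 and 2.50 TPM), 0 of 3 NK cell markers (0.50 and 0.97 TPM) and 0 of 4 osteoblast and chondrocyte markers (0.48 and 0.50 TPM). Of 5 myeloid markers 1 was detected, Cd68, and of 4 dendritic cell markers 1, Zbtb46, with summed levels of 4.27 and 3.77 TPM and of 3.28 and 3.79 TPM. In the stem cell and megakaryocyte list, Gata1 and Itga2b were detected, Kit had 0.43 and 1.73 TPM and Pf4 0.22 and 0 TPM. The summed level of that list was 22.81 and 22.02 TPM. The part of these cells in the Runx levels was not tested.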

How the data were processed

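PolyA RNA-seq was deposited for 2 technical libraries of 1 biological replicate, all in 1 group. The larger gene table and the transcript table hold estimated counts, TPM, posterior mean counts with their SD, and credibility bounds of TPM (signal values), all deposited by the authors and named so in the headers, for GENCODE M21 on mm10. The transcript table also gives the percent of a gene's TPM per transcript, as deposited. A smaller deposited table holds whole counts for GENCODE M4 genes. Aligner, quantifier, strand and credibility level are not given in the sources used here. Reads shared between transcripts were divided by estimation, so isoform values are less certain than gene values.

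Gene totals were 15386113 and 13604480 rounded counts, and annotated genes held 99.83% and 99.84% of all counts. A count of 0 allows 3 counts, or 0.195 and 0.221 CPM. Entries without a gene were left out. The smaller table held 3581589 and 3271045 counts. Estimated counts were rounded, scaled by TMM in edgeR 4.0.16, and compared between libraries by a two-sided exact binomial test at 10 or more summed counts. Benjamini-Hochberg adjustment ran over all genes tested, with a threshold of 0.05. The test was tested on simulated data that held only read sampling and set fold changes. That run cannot show how the test behaves where other spread separates the libraries. Alternatives used DESeq2 1.42.0 size factors, other filters and a common dispersion. The exact binomial p-values set the technical difference between these libraries against read sampling only. Those of edgeR set it against a common dispersion estimated from the same libraries. Neither measures the spread between animals.

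Intervals are Clopper-Pearson (SciPy) and cover counting error only. All 4 members matched the RefSeq promoter table, with 6 windows. Transcripts were named at 5% of their gene in either library, overlapping genes at 1 TPM in either library, and list genes when among the 3 highest, below 1 TPM in both libraries, or called with a ratio over 1.5. Other list genes were added after their values were seen. A list gene that this rule names is not reported here. Members and lists were chosen with earlier results of these data known.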

Additional observations from a re-analysis of the deposited data

How the results depend on the processing

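Of 105 values recomputed under alternatives that keep both libraries, 71 stayed within the spread between libraries, on their side of the threshold or, for counts, within 1.5 times. Leaving out either of 2 libraries cannot move a mean by more than their SD and shows no stability. No paired analysis was possible because the only group has 2 technical libraries. Values that changed follow, and the cause was not tested. Posterior mean TPM gave 30.4 for Runx1, 5.44 for Runx2 and 29.1 for Cbfb. Coding transcripts alone gave 16.2 TPM for Runx1 and 31.1 for Cbfb, which turned the ratio of Runx1 to Cbfb from 1.05 to 0.519. Full-length coding transcripts, an alternative chosen after seeing the data, gave 10.8 for Runx1 and 31.1 for Cbfb, with a ratio of 0.347. In CPM over matched genes, the smaller table gave 36.2 for Runx1, 5.93 for Runx2, 6.93 for Runx3 and 18.6 for Cbfb, against 99.9, 24.5, 34.1 and 70.5. Per kb it gave ratios of 1.52 for Runx1 to Cbfb and 4.07 for Cbfb to Runx3. It called 729 genes between the libraries, and edgeR's common dispersion 312, against 3328. The log2 ratio of Runx2 was -0.64 in the smaller table, the opposite direction. Runx3 lost its call in the smaller table (log2 ratio 0.56) and with the common dispersion (0.49). As shares of TPM, distal starts held 81.0% in Runx1, 96.9% in Runx2 and 98.7% in Runx3. By posterior mean counts they held 91.0% in Runx2. Coding transcripts alone gave 95.4% in Runx1 and 99.0% in Runx2, and full-length coding ones 98.7% and 99.0%. By estimated counts, Runx1-201 held 54.7%, Runx1-207 32.5% and Runx2-202 97.6% of the gene, and by posterior mean counts Runx1-201 held 54.5% and Runx1-207 32.5%. At 5 TPM, 1 of the targets in other lineages was detected.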
